A study of Mus musculus with 4 samples.

Results

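The inflammasome and the interleukin-1 (IL-1) family cytokines tied to it were followed in alveolar macrophages (AMs), which patrol the airspaces of the lung. Members were chosen as the rows of the deposited gene count table whose gene name equals 1 of 10 names, namely Nlrp3, Nlrc4, Aim2, Pycard, Casp1, Casp4, Gsdmd, Il1a, Il1b and Il18. All 10 were found, each with 1 identifier, among 54532 genes, and all 10 had enough counts to be tested with 14256 genes in all. The Control group comprised 2 bulk RNA-seq libraries of AMs from the lungs of female wild-type mice that carried no tumor. The Tumor group comprised 2 libraries of AMs from female wild-type mice examined 2 weeks after receiving cells of 4T1, a mammary carcinoma line of the mouse known to metastasize to the lung. According to the methods of the study, wild-type mice were young adults on a BALB/c background and 4T1 cells were placed in the mammary fat pad. The labels do not say whether a library came from 1 mouse or from a pool, so p-values measure only the spread between these libraries, which may be technical.

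An inflammasome is a cytosolic complex in which a sensor that has met a microbial product or a danger signal recruits caspase-1, often through the adaptor ASC, the product of Pycard. Active caspase-1 cleaves the precursors of IL-1β and IL-18 and the pore-forming protein gasdermin D, whose pores let the cytokines out of the cell and can end in lytic death called pyroptosis. IL-1α acts on the same receptor as IL-1β and does not need caspase-1 to be active, and caspase-11, the product of mouse Casp4, senses cytosolic lipopolysaccharide and cleaves gasdermin D directly. Much of this pathway is controlled after transcription, so transcript levels describe the supply of its parts and not its activity.

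The libraries held between 16167147 and 19205737 counts, and within a group they agreed closely, with a correlation of log2 levels across genes of 0.998 in the Control pair and 0.997 in the Tumor pair. Levels are given below as CPM, that is, counts relative to TMM-scaled library size. Of 14 AM markers, led by Chil3 and Mrc1, all were detected, and their summed level was 18323 and 18400 CPM in the Control libraries and 12710 and 12862 CPM in Tumor libraries, with 13 lower and 1 higher. Under scaling on these markers themselves 5 were lower and 8 higher. Transcripts of other cells moved with the group. All 12 neutrophil markers, led by S100a9 and Ngp, were higher, and their sum was 53.9 CPM in each Control library against 3949 and 3985.5 CPM in Tumor libraries, with Elane at 0 counts in both Controls. All 5 eosinophil markers, led by Prg2 and Epx, rose from a sum of 0.480 and 0.507 CPM to 2224 and 2204 CPM, with Prg3 at 0 counts in both Controls. All 6 basophil and mast cell markers (Gata2 and Mcpt8 leading), all 7 hepatocyte markers (Alb and Apoa1) and all 4 B cell markers (Ms4a1 leading) were higher as well. Between group means, the basophil and mast cell sum rose from 0.450 to 59.0 CPM and the B cell sum from 4.96 to 10.9 CPM. The hepatocyte sum rose from 0.122 to 628.7 CPM, with Alb at 0 counts in both Controls and at 8036 and 9358 in Tumor libraries. Of 8 monocyte and interstitial macrophage markers (Cd14 and Ccr2 leading) 2 were higher and 5 lower, of 6 dendritic cell markers (Ccr7 and Cd209a) 3 were higher and 1 lower, of 4 tested T and NK cell markers (Cd3d and Cd3e) 2 were higher, and of 6 lung epithelium markers (Scgb1a1 and Epcam) 2 were higher and 3 lower. Under scaling on the AM markers the monocyte list had 4 higher and 3 lower, the dendritic list 5 higher and 1 lower, the T and NK list 3 higher, and the epithelium list 3 higher and 1 lower. The study describes AMs isolated for both staining and RNA-seq and gives the stained cells as CD45+ CD11b- CD11c+ SiglecF+, a gate that its RNA-seq text does not repeat. The part of these other cells in the results below was not tested. In bulk samples, fewer cells of a type and less RNA per cell cannot be told apart.

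Under TMM scaling, most of the inflammasome and IL-1 transcripts were less abundant in the AM libraries of tumor-bearing mice. Of the 10 members, 8 fell (Il1a, Casp4, Il1b, Nlrp3, Nlrc4, Aim2, Il18 and Casp1), Gsdmd rose and Pycard did not pass the test (edgeR quasi-likelihood test, Benjamini-Hochberg adjusted p under 0.05). Of all genes tested 53.8% were called, 24.8% lower and 29.0% higher. The median log2 fold change of the members was -0.66, against 0.02 for all genes tested. The falls were mostly moderate, as 1 member, Il1a, fell by at least 2-fold, a size reached by 3.01% of all genes tested in the lower direction. Casp4 lay at that limit, at -0.996 on the log2 scale, and passed it without Control replicate 2 (-1.04), without Tumor replicate 1 (-1.02) and with no filter on low counts (-1.01), where 2 members fell by at least 2-fold. Directions depended on scaling. When libraries were scaled on the 14 AM markers, which moved the median of all genes by 0.57 on the log2 scale, Il1a, Casp4, Il1b, Nlrp3 and Nlrc4 were still lower, whereas Casp1, Il18, Gsdmd and Pycard were higher and Aim2 was not called. Under that scaling 74.4% of all genes tested were called higher and 3.95% lower, beside 4 and 5 of the 10 members. The 14 markers themselves ranged from -2.13 (Fabp4) to 0.96 (Ear1) under TMM scaling, with Siglecf at -0.16. Changes of sign under scaling on them thus depend on the markers chosen. Together the members held 0.678% and 0.674% of all counts in Control libraries, against 0.336% and 0.335% with a tumor.

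**Figure D1:**
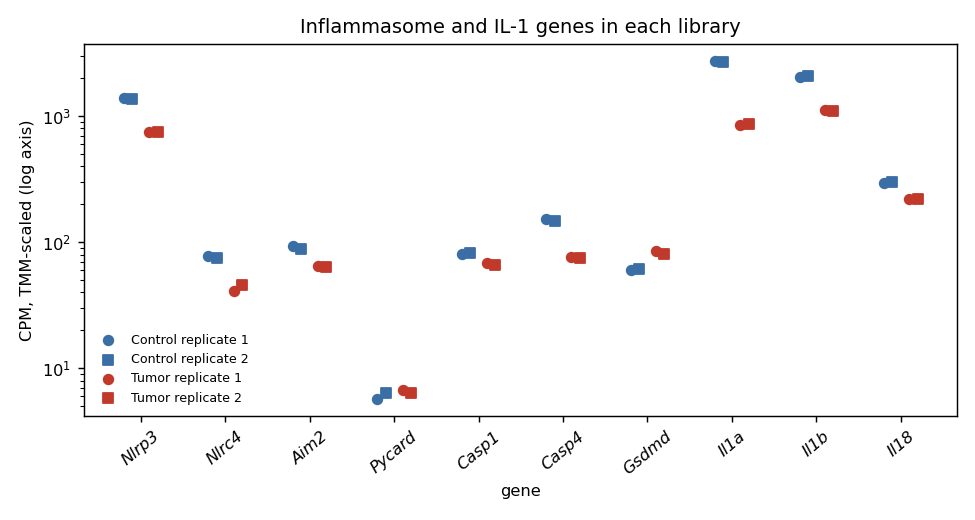
Level of each member in each library, in TMM-scaled CPM on a log axis, with Control libraries in blue and Tumor libraries in red (circles, replicate 1, and squares, replicate 2). The Control points lie above the Tumor points for 8 genes, most widely for Il1a (2750.2 and 2694 against 859.9 and 872.9 CPM), and below them for Gsdmd and, within a narrow range, Pycard, and under scaling on AM markers the fold change turns for Casp1 and Il18 and is 0.05 and not called for Aim2.

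Among the members, Il1a and Il1b had the highest levels in both groups, and Il1a had the largest change. Il1a (ENSMUSG00000027399), which lies at 129299610 to 129309972 on chromosome 2 (minus strand, GRCm38), encodes IL-1α, an alarmin that is active without processing. It stood at 2750.2 and 2694 CPM in the Control libraries and at 859.9 and 872.9 CPM in Tumor libraries. Both Control libraries lay far above both Tumor libraries. This 3.14-fold fall (log2 fold change -1.65 ± 0.0186, SE, edgeR adjusted p 3.71e-31) ranked 139 from the lowest among 14256 genes.

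Il1b (ENSMUSG00000027398) lies beside Il1a on the same strand, from 129364570 to 129371139, and encodes IL-1β, the main fever-inducing product of inflammasome activity. Its level was 2043 and 2081 CPM in the Control libraries against 1115 and 1092 CPM in Tumor libraries. Both Tumor libraries were lower than both Controls, and the fall was 1.87-fold (log2 -0.90 ± 0.0189, SE, edgeR adjusted p 7.65e-25). Neutrophils are also known to transcribe Il1b, and the neutrophil markers given above rose in the same libraries in which Il1b fell. The share of each cell type in the Il1b counts was not tested. Il18 (ENSMUSG00000039217, plus strand of chromosome 9, 50554827 to 50581840) encodes IL-18, which drives interferon-γ production by lymphocytes and, unlike Il1b, is kept as a ready precursor in many resting cells. It was at 298.0 and 302.2 CPM in Control, and at 221.8 and 219.7 CPM in Tumor libraries. Its fall of 1.36-fold (log2 fold change -0.44 ± 0.0304, SE, edgeR adjusted p 5.86e-13) was smaller than those of Il1a and Il1b, and it became a rise of 0.13 under scaling on the AM markers.

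To show the regulatory sequence next to the genes that fell most, the 250 bases before the start site are given for Il1a, Il1b, Nlrp3 and Casp4, 5′ to 3′ on the strand of the gene (RefSeq, GRCm38.p6, C57BL/6J reference, whereas the mice were BALB/c). Capitals mark matches, on either strand, to the core of the xenobiotic response element bound by AHR (GCGTG), a κB-type motif (GGGA and CC separated by 4 bases of any kind), an AP-1 motif (TGANTCA) and a PU.1-type motif (GAGGAA). Nlrp3 and Casp4 each have 2 listed start sites, of which the one nearest the start of the gene in the count table is shown.
Il1a promoter (chr2:129309973-129310222, minus strand): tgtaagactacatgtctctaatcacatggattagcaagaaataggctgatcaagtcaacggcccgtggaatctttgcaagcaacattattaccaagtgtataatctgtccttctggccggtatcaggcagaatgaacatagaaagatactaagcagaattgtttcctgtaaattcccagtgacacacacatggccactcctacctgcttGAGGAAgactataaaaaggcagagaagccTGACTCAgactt
Il1b promoter (chr2:129371140-129371389, minus strand): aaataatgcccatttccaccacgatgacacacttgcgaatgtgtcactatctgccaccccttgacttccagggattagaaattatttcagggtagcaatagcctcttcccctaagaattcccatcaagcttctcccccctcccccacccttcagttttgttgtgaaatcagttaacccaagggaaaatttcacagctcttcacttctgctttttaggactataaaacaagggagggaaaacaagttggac
Nlrp3 promoter (chr11:59541319-59541568, plus strand): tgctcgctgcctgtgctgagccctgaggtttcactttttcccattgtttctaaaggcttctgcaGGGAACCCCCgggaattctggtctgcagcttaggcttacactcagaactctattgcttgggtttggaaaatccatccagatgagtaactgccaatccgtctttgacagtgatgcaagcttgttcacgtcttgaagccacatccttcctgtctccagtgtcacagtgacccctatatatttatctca
Casp4 promoter (chr9:5308599-5308848, plus strand): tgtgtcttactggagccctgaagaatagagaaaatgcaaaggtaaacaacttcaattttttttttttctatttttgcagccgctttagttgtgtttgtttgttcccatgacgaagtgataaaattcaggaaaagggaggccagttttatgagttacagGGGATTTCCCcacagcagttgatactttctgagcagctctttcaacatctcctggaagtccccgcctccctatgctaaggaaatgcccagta

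The Casp4 window held 1 κB-type match, GGGATTTCCC, beginning 92 bases before the start, and the Nlrp3 window held GGGAACCCCC, beginning 186 bases before it. The Il1a window held a PU.1-type match at 41 and an AP-1 match, TGACTCA, at 12 bases before the start, and the Il1b window held none of the 4 motifs. No matches overlapped. The motif found for Nlrp3 depends on the start site, since the window of its other start, not shown, held PU.1-type matches at 220, 129 and 36 bases and no κB-type match. The other start of Casp4 held the same κB-type letters. Windows of Aim2, Pycard and Casp1 held PU.1-type matches, and those of Nlrc4 and Il18 held none of the 4 motifs. Over 32851 windows of the same length in the RefSeq table, 28.2% held the AHR core motif, 17.6% the κB-type, 6.75% the AP-1 and 23.3% the PU.1-type motif. Promoters were listed for 9 of the 10 members (not Gsdmd), in 11 windows, and none of these windows held the AHR core letters. A match is a description of letters and not a bound site, and a missing match says only that these letters are not in the window.

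The sensors fell to different degrees. Nlrp3 (ENSMUSG00000032691, plus strand of chromosome 11, 59541568 to 59566956) encodes the sensor that responds to potassium efflux, crystals and many other signals, and its transcription is induced in a priming step. It was at 1384 and 1367 CPM in Control, and 753.8 and 755.0 CPM in Tumor libraries. This was a 1.82-fold fall (log2 -0.87 ± 0.0200, SE, edgeR adjusted p 7.54e-24). Nlrc4 (ENSMUSG00000039193, minus strand of chromosome 17, 74425438 to 74459142), which works with NAIP proteins to detect bacterial flagellin and secretion systems, was at 77.2 and 75.7 CPM in Control, and 41.4 and 45.9 CPM in Tumor libraries. Its log2 fold change of -0.81 ± 0.0620 (SE), a 1.75-fold fall, had an edgeR adjusted p of 6.77e-12. The Tumor libraries differed more from each other for Nlrc4 than for Nlrp3, and both remained well under the Controls.

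Aim2 (ENSMUSG00000037860, plus strand of chromosome 1, 173350879 to 173466040), which encodes the sensor of cytosolic double-stranded DNA, changed less. It was at 94.3 and 88.2 CPM in Control, and 64.5 and 63.3 CPM in Tumor libraries, which is a change of -0.52 ± 0.0527 (log2, SE, edgeR adjusted p 2.29e-09). Scaled on the AM markers, the log2 difference was 0.05 with an edgeR adjusted p of 0.373 and was no longer called.

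The shared adaptor and the executioner of the pathway did not follow the sensors. Pycard (ENSMUSG00000030793, minus strand of chromosome 7, 127989708 to 127993867) was at 5.71 and 6.34 CPM in Control, and 6.76 and 6.42 CPM in Tumor libraries, from 100 to 126 counts in a library. The change of 0.13 ± 0.171 (log2, SE) had an edgeR adjusted p of 0.543, and the 95% interval of the difference ran from -0.22 to 0.48. Under scaling on the AM markers Pycard was called higher, by 0.70 with an edgeR adjusted p of 0.000444. Gsdmd (ENSMUSG00000022575, plus strand of chromosome 15, 75862327 to 75867408), which encodes the pore-forming gasdermin D, was the member that rose, from 60.1 and 61.8 CPM to 85.1 and 81.3 CPM. This was 1.36-fold higher (log2 0.45 ± 0.0538, SE, edgeR adjusted p 4.86e-08). It kept this direction under every alternative run, and reached 1.02 when scaled on the AM markers.

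The inflammatory caspases, which lie next to each other on the plus strand of chromosome 9, differed in size of change. Casp1 (ENSMUSG00000025888, 5298517 to 5307265), the protease that matures IL-1β and IL-18, was at 80.7 and 82.2 CPM in Control, and 68.5 and 66.5 CPM in Tumor libraries. This was the smallest called fall among the members (log2 fold change -0.27 ± 0.0521, SE, edgeR adjusted p 6.64e-05), and it became a rise of 0.30 under scaling on the AM markers. Casp4 (ENSMUSG00000033538, 5308828 to 5336783), the gene of caspase-11, stood at 153.4 and 147.1 CPM in Control, and 76.2 and 74.7 CPM in Tumor libraries. Its log2 fold change of -0.996 ± 0.0440 (SE), a 1.99-fold fall with an edgeR adjusted p of 2.78e-17, was the next largest fall after Il1a. The genes are related in sequence, and how reads with several matches were counted is not given in the sources used here.

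**Figure D2:**
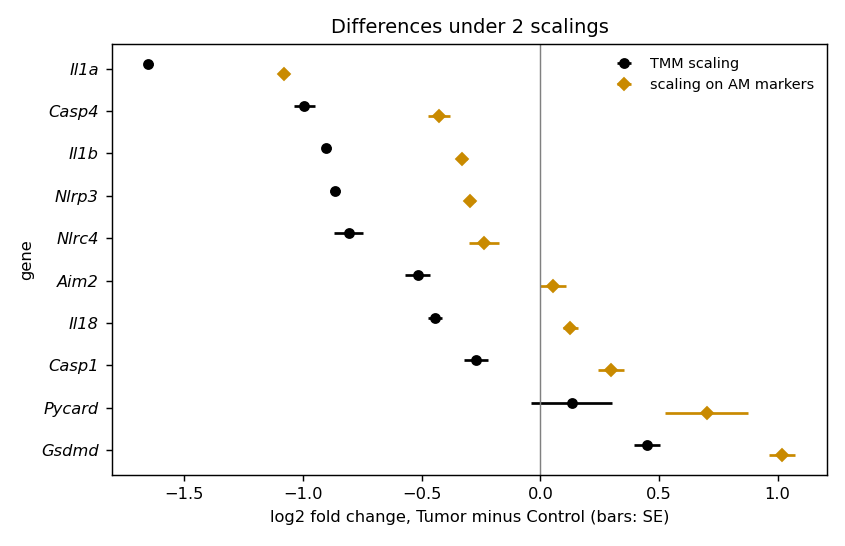
Log2 fold change (Tumor minus Control) of each member with its SE as bars, under TMM scaling (black circles) and under scaling on 14 AM markers (ochre diamonds). Il1a, Casp4, Il1b, Nlrp3 and Nlrc4 lie to the left of 0 under both, Gsdmd and Pycard to the right under both, and Aim2, Il18 and Casp1 on different sides.

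The values of all 10 members did not overlap between the groups, which was also true of 75.1% of all genes tested, so separation of 2 libraries from 2 is common in these data. Levels were then compared between members per base of gene model, as TPM (counts per base of the gene model, scaled to the same sum in each library). In the Control group the order was Il1a (4359 TPM), Il1b (3418), Nlrp3 (1072), Il18 (920.1), Casp1 (172.0), Casp4 (128.0), Aim2 (82.4), Gsdmd (81.1), Nlrc4 (51.1) and Pycard (5.01). Aim2 and Gsdmd overlapped there, and every other pair of neighbours was separated in the 2 libraries. In the Tumor group Il1b (1845 TPM) stood above Il1a (1399), Il18 (682.4) above Nlrp3 (592.7), and Gsdmd (111.6) above Casp4 (64.8) and Aim2 (58.2), and all neighbours were separated. Among all genes of the table Il1a ranked 18 by Control TPM and 80 by Tumor TPM, Il1b 22 and 41, Nlrp3 109 and 227, and Il18 131 and 197. Thus the cytokine transcripts remained among the most abundant in both groups. Pycard ranked 9699 and 10010. Its gene model in the table is 3800 bases long, so its TPM depends on a length that a short transcript need not have.

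Ratios taken within a library do not depend on scaling. The pairs were picked after the values were seen and are given as descriptions, and with 2 libraries against 2 an exact permutation test of such a ratio can give no two-sided p under 0.333. Il1rn encodes the IL-1 receptor antagonist, which occupies the receptor without signaling. Il1rn was at 639.4 and 637.4 CPM in Control, and 220.6 and 207.3 CPM in Tumor libraries, a log2 fold change of -1.58 ± 0.0291 (SE, edgeR adjusted p 3.71e-26) that was still -1.01 under scaling on the AM markers. The antagonist transcript thus fell almost as far as Il1a. Per base, the ratio of Il1a to Il1rn was 12.1 and 11.9 without and 10.9 and 11.8 with a tumor, close to each other in all 4. The ratio of Il1b to Il1rn was 9.27 and 9.48 in the Control and 14.7 and 15.3 in the Tumor libraries, 1.60-fold higher. The ratio of Il1a to Il1b went from 1.30 and 1.25 to 0.745 and 0.772. The ratio of Casp4 to Casp1 went from 0.767 and 0.722 to 0.449 and 0.453.

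**Figure D3:**
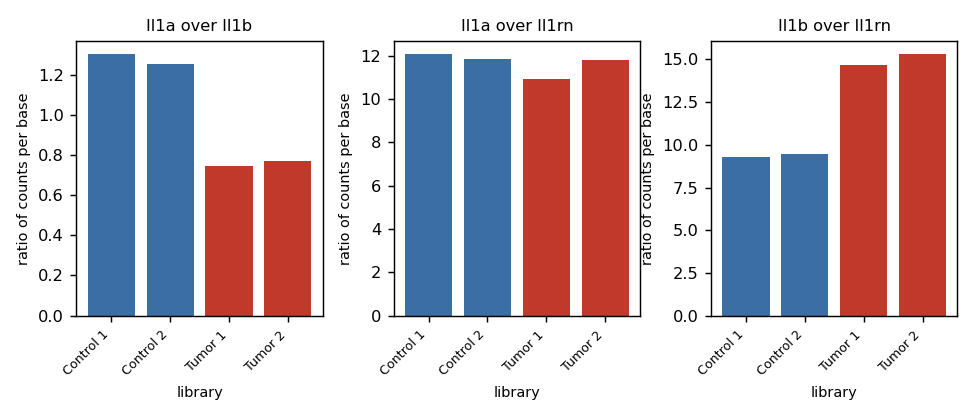
Ratios of counts per base within each library (bars from 0, Control in blue and Tumor in red) for Il1a over Il1b, Il1a over Il1rn and Il1b over Il1rn. The second ratio stays between 10.9 and 12.1 in all 4 libraries, while the Tumor bars are lower in the first and higher in the third.

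The other genes of the pathway were taken from 6 lists with 50 names, of which 49 were found (Irgb10 was not) and 42 were tested. Of these, 19 were higher, 13 were lower and 10 did not pass, beside 53.8% called over all genes. Under scaling on the AM markers 35 were higher and 2, Naip2 and Il1rn, were lower. Over all genes tested, 74.4% were called higher and 3.95% lower under that scaling. The counts under it for each list below are to be read beside these shares. The lists differed in where their large changes lay.

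Of 10 other sensors and adaptors 9 were tested, with 4 higher and 4 lower and a median log2 fold change of -0.30, and under scaling on the AM markers 5 were higher, 1 was lower and 3 were not called. The NAIP genes, whose products pass bacterial ligands to NLRC4, included Naip2 at 346.7 and 345.8 CPM in Control, and 195.4 and 194.6 CPM in Tumor libraries. This fall of 0.83 on the log2 scale was near that of Nlrc4, and it was 0.26 under scaling on the AM markers. Naip5 and Naip6 changed by -0.30 and -0.48, which turned to 0.27 and 0.09 under that scaling, and the close similarity of the NAIP genes makes their counts uncertain. Nlrp10 was lower by 0.79 on few counts, and was not called at -0.22 under that scaling. Mefv, which encodes pyrin, the sensor mutated in familial Mediterranean fever, had 21 and 11 counts in Control libraries against 528 and 578 with a tumor, a log2 fold change of 5.01 ± 0.176 (SE, edgeR adjusted p 1.48e-19). Nlrp12, a regulator found mainly in granulocytes and monocytes, had 0 counts in both Controls and reached 262 and 345 with a tumor, which is at least 79.6-fold higher against a floor of 3 counts per library. Nlrp1b was higher by 0.61, and Nlrp6, also at 0 in both Controls, was at least 3.95-fold higher. Mefv and Nlrp12 are known to be transcribed by neutrophils, whose 12 markers rose in the same libraries, as did the eosinophil markers. The cell source of these transcripts was not tested.

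Among activators and regulators, 4 of 11 tested genes were higher, 3 were lower and 4 were not called, with a median of 0.07, and under scaling on the AM markers 10 were higher and none was lower. Txnip, which encodes a thioredoxin-binding protein described as an NLRP3 activator, was at 104.5 and 108.7 CPM in Control, and 366.0 and 360.5 CPM in Tumor libraries, a log2 fold change of 1.77 ± 0.0341 (SE, edgeR adjusted p 1.05e-25). Nek7, a kinase that binds NLRP3, and P2rx7, the ATP receptor that triggers potassium efflux, were not called, with log2 fold changes of 0.07 and 0.01, and both were higher under scaling on the AM markers, by 0.63 and 0.58. Gbp5 was lower by 0.89, a call lost under that scaling (-0.32, edgeR adjusted p 0.0754), and Gbp2 was higher by 0.39. Of the genes of lytic death and release, Ninj1 and Gsdme rose. Ninj1, which ruptures the plasma membrane late in lytic death, rose from 20.8 and 21.4 CPM to 59.8 and 57.2 CPM, a log2 fold change of 1.47 ± 0.0763 (SE, edgeR adjusted p 1.08e-15). Gsdme rose by 0.77. The other genes of this list were not tested or are not reported here. Ninj1, Gsdme and Gsdmd rose in the same libraries as the neutrophil and eosinophil markers, and the cell source of these rises was not tested.

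Of 7 other IL-1 family cytokines 2 were tested, Il1rn as above and Il1f9, the gene of IL-36γ. Il1f9 had 8 and 3 counts in the Control and 323 and 409 in the Tumor libraries, a log2 fold change of 5.93 ± 0.247 (SE, edgeR adjusted p 7.38e-18). Il33 had between 1 and 12 counts, and Il1f6, Il1f8, Il1f5 and Il1f10 had at most 1 count in any library, so these cytokines were not detectable or near the floor at this depth.

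Of 9 receptors and decoys 6 were higher, 1 was lower and 2 were not called, with a median of 1.42, and under scaling on the AM markers all 9 were higher. Il1r2, which encodes a decoy receptor that binds IL-1 without signaling, had 14 and 24 counts in the Control and 4191 and 4745 in the Tumor libraries. The group means were 1.13 ± 0.547 and 241.9 ± 0.135 CPM (SD, n = 2), and the log2 difference was 7.77 ± 0.0939 (SE, edgeR adjusted p 1.99e-30). Il1r1, the signaling receptor, had 94 and 72 counts in Control and 102 and 119 in Tumor libraries and was not called (log2 0.32, edgeR adjusted p 0.155), though it was higher by 0.89 under scaling on the AM markers. Il1r2 is a known product of neutrophils. Between the group means the neutrophil sum rose from 53.9 to 3967 CPM and the eosinophil sum from 0.494 to 2214 CPM. The cell source of the Il1r2 rise was not tested. Il18rap and Il18r1, the chains of the IL-18 receptor, rose by 5.75 ± 0.114 and 2.86 ± 0.289 on the log2 scale (SE), to 85.9 and 5.31 CPM in the Tumor group. Il1rl1, the IL-33 receptor carried by mast cells, basophils and type 2 lymphocytes, rose by 4.96 ± 0.181 and Sigirr, a dampening receptor of the family, by 1.42 ± 0.283 (SE). Il1rap rose by 0.30, and Il1rl2 was lower by 0.23, turning to 0.34 under scaling on the AM markers. Il18bp, the soluble antagonist of IL-18, was not called at 0.22, and was higher by 0.79 under that scaling.

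Of 7 genes of the signal relay shared with Toll-like receptors 1 was higher, 3 were lower and 3 were not called, with a median of -0.12, and under scaling on the AM markers 6 were higher and none was lower. Irak2, a kinase that sustains the signal, was lower by 0.53, from 239.5 and 237.3 CPM to 166.4 and 163.4 CPM, and was at 0.04 and not called under scaling on the AM markers. Myd88, the adaptor, was lower by 0.21 and Tollip by 0.12, and both turned under that scaling, to 0.36 and 0.45. The call of Tollip was also lost with total counts as library sizes (-0.05, edgeR adjusted p 0.308). Irak4 was higher by 0.28, and by 0.85 under scaling on the AM markers, while Irak1, Irak3 and Traf6 were not called at -0.04, -0.14 and -0.03, and under that scaling stood at 0.53, 0.43 and 0.54.

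**Figure D4:**
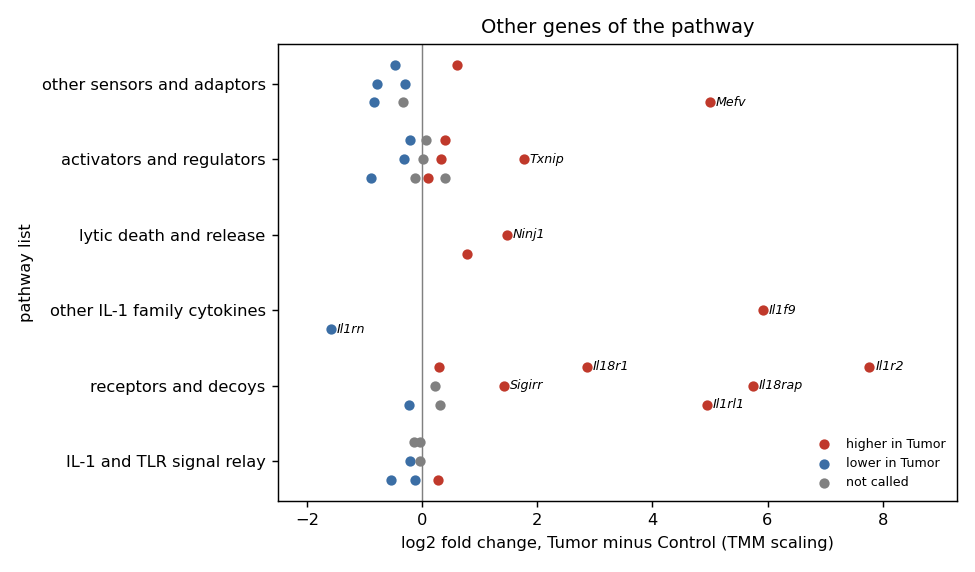
Log2 fold change (Tumor minus Control, TMM scaling) of tested genes in the 6 pathway lists, with genes called higher in red, called lower in blue and not called in grey. Genes that changed by at least 2-fold are named, and 2 genes with 0 counts in both Control libraries and 2 genes not reported here are left out. The points of the signal relay lie between -0.53 and 0.28, while receptors and decoys reach 7.77 for Il1r2, and of the blue points those of Naip5, Naip6, Brcc3, Casp8, Il1rl2, Irak2, Myd88 and Tollip turn sign under scaling on AM markers.

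Genes that overlap the members were read because the strand setting of the counting is not given in the sources used here, in which case reads of a gene and its antisense partner cannot be told apart. Gm14023, annotated on the opposite strand across Il1a, had 2323 and 1871 counts in the Control and 976 and 1200 in the Tumor libraries, a log2 fold change of -1.04 ± 0.0511 (SE, edgeR adjusted p 2.86e-16), in the direction of Il1a. Il1bos, annotated as antisense to Il1b, had 113 and 100 counts in the Control and 187 and 263 in the Tumor libraries, a log2 fold change of 0.97 ± 0.153 (SE, edgeR adjusted p 4.36e-06), opposite to Il1b. Both held far fewer counts than the cytokine genes. In no library did the genes overlapping Nlrc4, Aim2, Pycard and Il18 exceed 34 counts, and Nlrp3, Casp1, Casp4 and Gsdmd overlapped no other annotated gene.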

How the data were processed

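AMs were isolated by the study from mouse lungs and bulk RNA-seq libraries were sequenced. Per the methods of the study and the labels, paired-end reads were aligned with HISAT2 2.0.5 and assigned to genes with featureCounts. What the authors deposited are raw counts, whole numbers without normalization. The genome build, annotation and strand setting are not given in the sources used here. Of 54532 identifiers 54409 were found in GENCODE M21 (GRCm38), 98.3% with identical coordinates, as for all 10 members.

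The fit used edgeR 4.0.16 under R 4.3.3. The filterByExpr filter (minimum count 10) left 14256 genes, and libraries of 16167147 to 19205737 counts were scaled by TMM (factors 0.977 to 1.02). The quasi-likelihood test (glmQLFit, glmQLFTest) used group as its single term, with Benjamini-Hochberg adjustment over all genes and a threshold of 0.05. SE is the absolute log2 difference over the root of the F statistic, and the SD is over 2 libraries. TPM was computed from counts and the gene length column. A value of 3 counts was the floor, which covers counting error only. The script was tested on simulated data in which a small set of genes changed, in both directions. That setting lacked the widespread changes of these libraries, so it does not bear on the choice of scaling.

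The members and lists were chosen with earlier results of these data known. Named were the 10 members, up to 5 genes per pathway list that were called with at least a 2-fold change and a group mean of 50 counts or more on the higher side, and the 2 genes with the highest counts in each marker list. Some genes that this rule names, and their values, are not reported here. Other pathway genes, the overlapping genes, the ratios and the motifs were chosen after values were seen. Alternatives were DESeq2 size factors, total counts and AM markers for scaling, no filter or at least 10 counts in every library, DESeq2 1.42.0, limma-voom (limma 3.58.1), the replicate number as a block, dropping the 20 most counted genes, stricter thresholds and leaving out each library. Where 1 library of a group remained, it was assumed to vary like the other group.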

Additional observations from a re-analysis of the deposited data

How the results depend on the processing

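Of the 10 members 9 were called under each of the alternative scalings, filters and tools, with an adjusted p under 0.01, with the replicate block and without each library in turn. The exception was a required 2-fold change, which left 1 called, lower, and 0 called higher by edgeR (Gsdmd rose by 1.36-fold), and 13 of the 32 pathway genes. The split between directions depended on scaling. Scaling on the AM markers, among which 13 of 14 were lower, gave 5 members lower and 4 higher in place of 8 and 1. It reversed Aim2 to 0.053, Casp1 to 0.30 and Il18 to 0.13 on the log2 scale, and brought Pycard to 0.70 with an edgeR adjusted p of 0.000444. The 9 members called were thus not the same, with Aim2 lost and Pycard gained. Over all genes, 94.96% of calls were then higher, against 53.9% under TMM. Over 13 alternatives the log2 fold change ranged from -1.69 to -1.08 for Il1a, -1.04 to -0.43 for Casp4, -0.93 to -0.33 for Il1b, -0.90 to -0.30 for Nlrp3, -0.89 to -0.24 for Nlrc4, and 0.41 to 1.02 for Gsdmd, all called. Pathway calls ranged from 27 with DESeq2 to 37 with scaling on the AM markers, and from 29 to 32 without 1 library. The replicate numbers share only a number: deviations of same-numbered libraries correlated at 0.0195 across genes, and with the replicate block 9 members and 32 pathway genes were called. Pycard, at 100 to 126 counts in a library, had the largest SE among the members (0.171).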
